A study of Mus musculus with 20 samples.

Results

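The 10 genes described here set the tone of the vessel wall. They are Nos3, Gucy1b3 and Prkg1 of the nitric oxide and cGMP pathway, Edn1, Ednra and Ednrb of the endothelin system, Ace and Agtr1a of the renin-angiotensin system, and Ptgs1 and Ptgis of prostacyclin synthesis. They were taken from the table by gene symbol, and each symbol matched 1 of the 21078 genes in the table of sense-strand read counts. The samples were thoracic aortas of 20 wild-type male C57BL/6 mice, 10 to 12 weeks old, of which 10 belonged to the proton series and 10 to the gamma series. Whole-body doses were 0, 5, 10, 25, 50, 75, 100, 125, 150 and 200 cGy, with 1 mouse for each dose and radiation type, and the vessel was removed 4 h after exposure. No dose was replicated within a radiation type, so the comparisons rest on trends over 10 doses and on pairs of mice of equal dose, and the p-values measure the spread between these mice.

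Vascular tone is set by exchange between endothelium and smooth muscle. Endothelial nitric oxide activates guanylate cyclase in smooth muscle, and the cGMP formed acts through cGMP-dependent protein kinase to relax the cell, while prostacyclin relaxes it through cAMP. Endothelin and angiotensin II act on receptors of smooth muscle to contract it, and endothelial endothelin receptors oppose this by releasing nitric oxide and prostacyclin.

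Each library summed to between 6051657 and 6058006 counts. The 6 smooth muscle markers together took 2.73% to 5.49% of the counts, and each of them had more than 3 counts in each mouse. Several libraries stood apart. In the 4 mice given 150 or 200 cGy, the deviation of a gene from its mean fell along GC content (correlation between -0.40 and -0.35 over 9702 genes, not independent of each other), against -0.02 to 0.28 in the other 16 mice. The proton mouse at 75 cGy held 14878 counts of brown fat markers, against at most 5824 in any other mouse, and 15801 counts of heart muscle markers, against at most 350. Its smooth muscle marker sum, 165116, was the lowest of all, and the gamma mouse at 100 cGy had the second highest brown fat sum. Erythroid markers, which are haemoglobin genes and Alas2, summed to between 134 and 13794 counts. In such tissue RNA, fewer cells of a type and less RNA per cell cannot be told apart.

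The members spanned a 412-fold range of level. Levels between genes are compared as reads per kb of exon, scaled to the library total (RPKM), and each mean is over 20 mice with its SD. Ptgis, the synthase of prostacyclin, was the highest member at 404 ± 64.7 RPKM, which is above 99.41% of the 13124 genes tested, those that averaged 5 counts or more. Gucy1b3, the beta subunit of soluble guanylate cyclase, followed at 114 ± 16.9 RPKM. Ace, the angiotensin-converting enzyme, was at 106 ± 18.1 RPKM. These 3 genes were thus among the most abundant transcripts of the aorta, while the other 7 were far lower.

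Edn1, the precursor of endothelin, was at 12.95 ± 5.72 RPKM, and Nos3, the endothelial nitric oxide synthase, was at 10.1 ± 5.12 RPKM. Ptgs1, which encodes a cyclooxygenase, was at 4.12 ± 1.91 RPKM, and Prkg1, a cGMP-dependent protein kinase, was at 2.46 ± 2.47 RPKM. By the mean the receptors stood last, Ednra at 2.10 ± 0.616 RPKM, Ednrb at 1.62 ± 1.01 RPKM and Agtr1a at 0.981 ± 0.806 RPKM. The mean of Prkg1 was raised by the mice at 150 and 200 cGy. Its median over the 20 mice was 1.38 RPKM, below that of Ednra at 1.93 and close to that of Ednrb at 1.33. Neighbours in this order were compared within mice by a permutation test of the log2 ratio (two-sided, 100000 resamples, Benjamini-Hochberg over the 9 neighbouring pairs). The levels of Gucy1b3 and Ace did not differ beyond their spread, with Gucy1b3 higher in 11 of 20 mice (adjusted permutation p = 0.215), and neither did those of Prkg1 and Ednra, with Prkg1 higher in 7 of 20 mice (adjusted permutation p = 0.492). The other 7 pairs did, of which Edn1 over Nos3 was the closest to the threshold (higher in 17 of 20 mice, adjusted permutation p = 0.0298). These p-values cover the spread between mice alone. An error in the level of a gene that all mice share, as from the exon length used, was not tested.

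**Figure D1:**
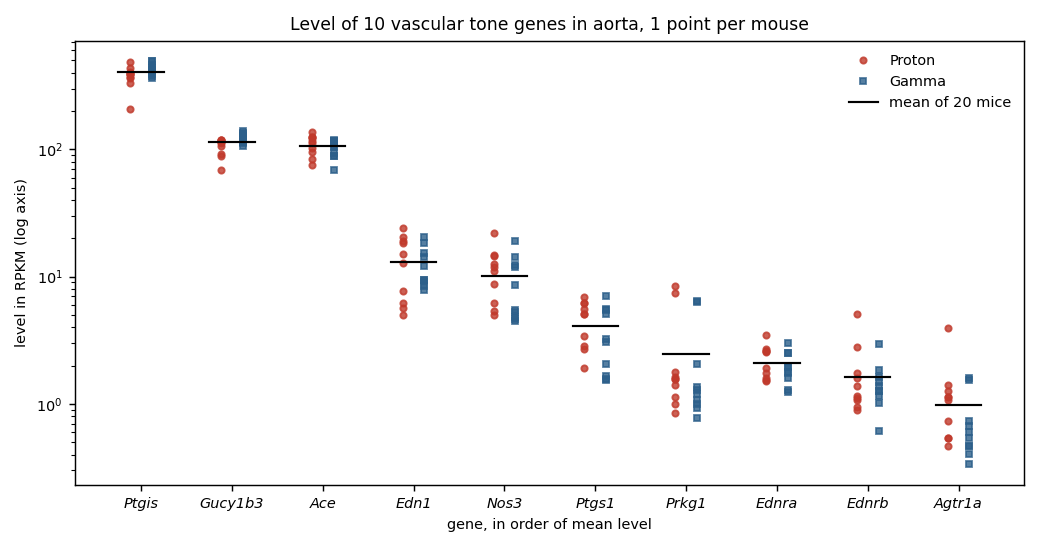
Level of each of the 10 genes in RPKM, on a log axis, with 1 point per mouse, circles for the proton series and squares for the gamma series; the black line is the mean of 20 mice. Ptgis, Gucy1b3 and Ace lie near or above 100, and the points of Prkg1 fall into a group of 16 mice and a group of 4 mice above it.

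The first question of the design is which genes follow dose. A log2 slope per 100 cGy was estimated for each gene and radiation type by the quasi-likelihood method of edgeR, and a gene was called at a Benjamini-Hochberg adjusted p under 0.1 over all 13124 genes. Prkg1 rose with dose in both series, and it was the 1 member of 10 that was called. For proton radiation 1 member was called upward, where 1.6% of all genes were, and 0 downward, where 0.16% were. For gamma radiation 1 member was called upward, against 5.44% of all genes, and 0 downward, against 2.21%. With 1 slope shared by both series, which uses 2 mice for each dose, again Prkg1 was called upward, against 11.9% of all genes, and 0 members downward, against 5.77%. With 1 member called, nothing is read from these counts about vascular tone genes as a group. The median slope of the 10 members was 0.054 for proton and 0.10 for gamma radiation, beside 0.0018 and 0.013 over all genes tested.

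**Figure D2:**
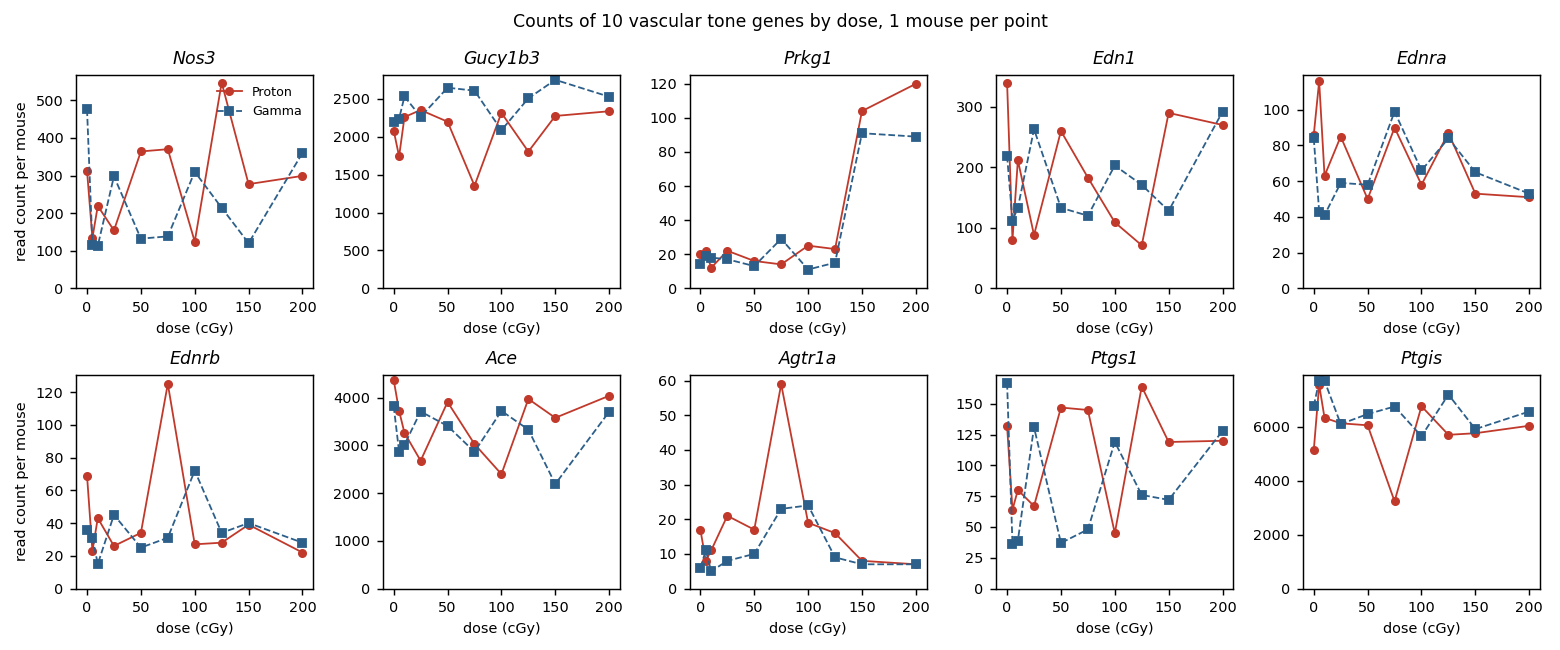
Read count per mouse (vertical axis) against dose in cGy (horizontal axis) for each member, with circles and solid lines for the proton series and squares and dashed lines for the gamma series, 1 mouse per point. Prkg1 stays at 29 counts or fewer up to 125 cGy and is at 89 or more at 150 and 200 cGy, Ednrb and Agtr1a peak in the proton mouse at 75 cGy, and Nos3 and Ptgs1 move up and down together without a trend.

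Prkg1 (chromosome 19, mm9 positions 30643728 to 31839312, minus strand) encodes the kinase through which cGMP relaxes smooth muscle. From 0 to 200 cGy its counts in the proton series were 20, 22, 12, 22, 16, 14, 25, 23, 104 and 120. In the gamma series they were 14, 19, 18, 17, 13, 29, 11, 15, 91 and 89. The 16 mice given up to 125 cGy thus lay between 11 and 29 counts and the 4 mice above that dose between 89 and 120, with no overlap. The mean was 18.1 ± 5.08 (SD, n = 16) in the former and 101 ± 14.3 (SD, n = 4) in the latter, a 5.57-fold difference, which ranked 11 among the 13124 genes. All 4 highest-dose mice lay above the other 16 in 6.8% of the genes tested and below them in 2.47%. This split of the doses was chosen after the counts were seen and is given as a description.

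The edgeR slope of Prkg1 was 1.46 ± 0.30 (SE) per 100 cGy for proton radiation, a 2.74-fold change (Benjamini-Hochberg adjusted p = 0.0338). For gamma radiation it was 1.30 ± 0.31, a 2.46-fold change (edgeR adjusted p = 0.0284), and for both series together 1.38 ± 0.21 (edgeR adjusted p = 0.000470). The proton and gamma slopes differed by 0.16 with a 95% interval of -0.78 to 1.10, which was not significant (edgeR p = 0.727). Cdkn1a, a known target of p53 that follows radiation dose, had slopes of 1.39 ± 0.22 and 1.59 ± 0.24 in the same fit.

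The slope of Prkg1 rested on the mice at 150 and 200 cGy. Over 0 to 125 cGy it was 0.21 ± 0.34 for proton radiation and -0.12 ± 0.36 for gamma radiation, and the slope shared by both series was 0.06 ± 0.24 (edgeR adjusted p = 0.964), where 0.442% of all genes were called upward. The shared slope of Cdkn1a over the same doses was 1.97 ± 0.23. Leaving out the proton mouse at 150 or at 200 cGy raised the adjusted p of Prkg1 for proton radiation to 0.126 and 0.636, and leaving out the gamma mouse at 150 or at 200 cGy raised that for gamma radiation to 0.123 and 0.261. The same 4 libraries are those that stood apart in GC content. With library values adjusted for the GC content and length of the genes, the slopes of Prkg1 were 1.43 ± 0.30 and 1.26 ± 0.31, both still called. The adjustment takes out only the average trend of each library along GC content and length. Properties that set these 4 libraries apart, GC content included, cannot be told apart from dose for a single gene. An exact permutation test of the rank correlation of count with dose called 0 members in either series, beside 0.0838% of all genes for proton and 1.8% for gamma radiation. For Prkg1 it gave a rank correlation of 0.70 in the proton series (exact permutation p = 0.0287, adjusted p = 0.739) and of 0.36 in the gamma series (exact permutation p = 0.313, adjusted p = 0.658), and it was the 1 member with an unadjusted p under 0.05.

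The kinase has a pair of known isoforms that begin at separate first exons, and the counts pool them. The 250 bases before each start are shown because Prkg1 is the member with a dose slope, as RefSeq gives them on GRCm38.p6, a later build than the mm9 of the counts. Both lie on the minus strand, and the sequences run 5′ to 3′ and end at the base before the start. The stretch at chr19:31765034-31765283 has a GC content of 55.2% and that at chr19:31664371-31664620 one of 62.8%. Capitals mark matches, on either strand, to GGGCGG, the core of a GC box, to AGGAAG, a common form of the ETS site, or to GATAA, a common form of the GATA site.
Prkg1, start at the higher position: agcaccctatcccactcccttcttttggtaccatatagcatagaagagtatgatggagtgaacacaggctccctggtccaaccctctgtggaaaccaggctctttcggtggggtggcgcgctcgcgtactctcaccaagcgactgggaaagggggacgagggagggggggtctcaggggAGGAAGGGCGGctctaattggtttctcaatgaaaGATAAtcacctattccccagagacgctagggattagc
Prkg1, start at the lower position: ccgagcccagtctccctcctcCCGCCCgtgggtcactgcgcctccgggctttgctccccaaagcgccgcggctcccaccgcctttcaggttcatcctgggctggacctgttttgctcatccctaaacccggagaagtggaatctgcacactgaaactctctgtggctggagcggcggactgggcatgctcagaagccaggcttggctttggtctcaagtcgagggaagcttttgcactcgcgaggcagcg
The start at the higher position had AGGAAG and GGGCGG, which overlap in 1 base, and GATAA, and that at the lower position had GGGCGG alone. Of the 32851 promoter windows of the same length, 32.7% hold GGGCGG, 29.5% hold AGGAAG and 22.6% hold GATAA, so that none of these matches is rare.

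Of the 82 other genes of these pathways that were looked at, 60 averaged 5 counts or more and were tested. For proton radiation 1 of the 60 rose and 0 fell, beside 1.6% and 0.16% of all genes. For gamma radiation 3 rose and 1 fell, beside 5.44% and 2.21%. With the shared slope 6 rose and 4 fell, beside 11.9% and 5.77%, so that nothing particular to these pathways is read from the counts. Pde3a, a phosphodiesterase of cAMP that cGMP inhibits, rose by 0.88 ± 0.21 per 100 cGy in each series (edgeR adjusted p = 0.0620 for proton and 0.0292 for gamma radiation). Its counts lay between 150 and 268 up to 125 cGy and between 623 and 684 above. Pde3a therefore split the same 4 mice from the other 16 as Prkg1 did.

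With the shared slope, Kcnma1, the pore subunit of the large-conductance potassium channel that cGMP-dependent kinase acts on, rose by 0.53 ± 0.13. It had 66 to 139 counts up to 125 cGy and 221 to 323 above. Lnpep, an aminopeptidase that binds angiotensin IV, rose by 0.60 ± 0.13, from between 91 and 145 counts to between 245 and 279, and its gamma slope of 0.57 ± 0.19 was called (edgeR adjusted p = 0.0981). Htr2a, a contractile serotonin receptor, rose by 0.51 ± 0.20, from between 14 and 56 counts to between 65 and 91. In these genes too the 4 highest-dose mice lay above all others, as they did in 4 of the 60 genes and in 6.8% of all genes, and over 0 to 125 cGy their shared slopes were 0.05 for Pde3a, -0.12 for Kcnma1, -0.13 for Lnpep and -0.36 for Htr2a, none of them called. With the adjustment for GC content and gene length, the proton slope of Pde3a (0.94 ± 0.22, edgeR adjusted p = 0.1001) and the shared slope of Htr2a (0.48 ± 0.20, edgeR adjusted p = 0.207) were not called, while the shared slopes of Pde3a, Kcnma1 and Lnpep were.

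Of the remaining called genes, Ddah2 alone separated the 4 highest-dose mice from the other 16. Htr1b, a further serotonin receptor, rose by 0.73 ± 0.14 with the shared slope and by 0.95 ± 0.18 with the gamma slope (edgeR adjusted p = 0.0118), and over 0 to 125 cGy its shared slope was 0.61 ± 0.19 (adjusted p = 0.249). Pde5a, the phosphodiesterase that degrades cGMP in smooth muscle, rose by 0.25 ± 0.08, and after the correction for GC content and length its slope was 0.10 ± 0.08, which was not called. Ddah2, of the dimethylarginine hydrolase family, fell by 0.30 on the log2 scale. Its counts lay between 209 and 332 up to 125 cGy and between 157 and 195 above. Vasp, an actin regulator and substrate of cGMP-dependent kinase, fell by 0.21, and Tbxa2r, the thromboxane receptor, fell by 0.28, but with that correction neither was called (adjusted p = 0.558 and 0.379). Ptges3, a co-chaperone also named as a prostaglandin E synthase, fell by 0.13 with the shared slope and by 0.20 with the gamma slope. For Htr1b, Ddah2 and Ptges3 the result with the correction for GC content and length is not given here. Over 0 to 125 cGy, 1 of the 60 genes was called with the shared slope, beside 0.442% of all genes called upward. It was Enpep, an aminopeptidase that degrades angiotensin II, at 0.43 ± 0.09 (edgeR adjusted p = 0.0557). Its count averaged 151 ± 30.4 (SD, n = 16) up to 125 cGy and 123 ± 24.3 (SD, n = 4) above, with overlap. Over all doses its rank correlation with dose was 0.12 in the proton series (exact permutation p = 0.752). In the gamma series it was 0.21 (exact permutation p = 0.560). The highest gene per kb of exon was Cav1 at 390 ± 22.3 RPKM in the nitric oxide and cGMP list, Ptges3 at 49.0 ± 5.10 in the prostanoid list, Atp6ap2 at 37.5 ± 3.03 in the renin-angiotensin list, Ece1 at 33.2 ± 8.76 in the endothelin list and Adra1d at 24.8 ± 6.49 among the other vasoactive receptors.

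**Figure D3:**
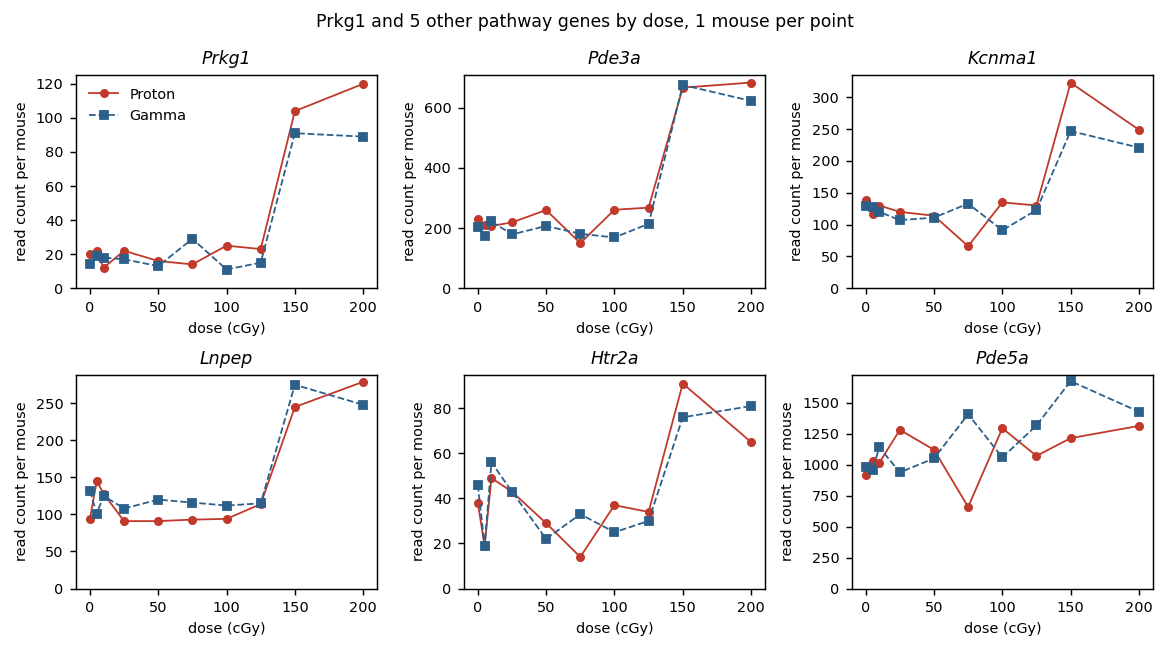
Read count per mouse (vertical axis) against dose in cGy (horizontal axis) for Prkg1 and 5 other pathway genes called with the shared slope, with circles for the proton series and squares for the gamma series, 1 mouse per point. In Prkg1, Pde3a, Kcnma1, Lnpep and Htr2a the 4 mice at 150 and 200 cGy lie above the other 16, and in Pde5a they overlap with them.

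The other members of the nitric oxide pathway had no dose slope that passed the test. Nos3 (chromosome 5, mm9 positions 23870628 to 23890292) ranged from 124 to 547 counts in the proton series (median 288) and from 113 to 476 in the gamma series (median 176). The highest counts were those of the proton mouse at 125 cGy and of the gamma mouse at 0 cGy, and the series overlapped. Its slopes were 0.36 ± 0.35 for proton and 0.07 ± 0.32 for gamma radiation, so a doubling per 100 cGy of protons lay inside the 95% interval of -0.38 to 1.11. Gucy1b3 (chromosome 3, 81835926 to 81878633, minus strand) was far steadier, with 1354 to 2353 counts in the proton series (median 2230) and 2087 to 2752 in the gamma series (median 2518.5). The lowest count was that of the proton mouse at 75 cGy. Its slopes were 0.07 ± 0.10 in both series, with 95% intervals of -0.14 to 0.27 and -0.14 to 0.28. The count of Gucy1a3, the alpha subunit that pairs with it, was 0.915 to 1.27 times that of Gucy1b3 in the 20 mice, and this ratio had slopes of -0.02 in both series.

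None of the endothelin members had a called dose slope. With 1 mouse for each dose and radiation type, differences between mice and between doses were not separated. Edn1 (chromosome 13, 42396639 to 42403358) ranged from 71 to 340 counts in the proton series (median 198) and from 112 to 292 in the gamma series (median 152). The proton mouse at 125 cGy had the lowest count and the proton mouse at 0 cGy the highest. Its slopes were 0.14 ± 0.30 and 0.20 ± 0.31. Ednra, the contractile receptor of smooth muscle (chromosome 8, minus strand), ranged from 50 to 116 counts in the proton series (median 74) and from 41 to 99 in the gamma series (median 62), and the proton mouse at 5 cGy was the highest. Its proton slope of -0.35 ± 0.18 was the lowest of the members and did not pass the test (edgeR p = 0.0747, adjusted p = 0.443), and its gamma slope was 0.08 ± 0.19. The difference of these slopes was -0.43 with a 95% interval of -0.98 to 0.12.

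Ednrb, the receptor that also clears endothelin (chromosome 14, 104213842 to 104243390, minus strand), ranged from 22 to 125 counts in the proton series (median 31) and from 15 to 72 in the gamma series (median 32.5). The highest counts were those of the proton mouse at 75 cGy and the gamma mouse at 100 cGy, which were also the mice with the highest and the second highest sums of brown fat markers, of adipocyte markers (16380 and 6534) and of mesothelium markers (473 and 127). Without the proton mouse at 75 cGy the proton slope of Ednrb was -0.36 ± 0.25, against -0.32 ± 0.37 with it. With the brown fat markers as a covariate it was -0.05 ± 0.17. The part of fat in these counts was otherwise not tested, nor was that of mesothelium. The ratio of Ednra to Ednrb counts went from 0.72 in that proton mouse to 5.04 in the proton mouse at 5 cGy.

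In the renin-angiotensin system, Ace (chromosome 11, 105829259 to 105851278) ranged from 2398 to 4370 counts in the proton series (median 3651) and from 2190 to 3820 in the gamma series (median 3369.5). The proton mouse at 0 cGy was the highest and the gamma mouse at 150 cGy the lowest. Its slopes of 0.04 ± 0.12 and -0.04 ± 0.12 had 95% intervals of -0.21 to 0.29 and -0.30 to 0.22. Agtr1a, the main receptor of angiotensin II in mouse vessels (chromosome 13, 30428310 to 30474736), was the lowest member, with 7 to 59 counts in the proton series (median 16.5) and 5 to 24 in the gamma series (median 8.5). The proton mouse at 75 cGy had 59 counts, and the next highest mouse of that series had 21. Slopes of -0.28 ± 0.48 and 0.12 ± 0.49 had 95% intervals that reached from -1.29 to 0.73 and from -0.89 to 1.14, so that a doubling per 100 cGy of gamma radiation lay inside the interval. Agtr1b, a near-identical copy of the receptor, had 4 to 21 counts, and how reads shared by the copies were divided was not tested. Ren1, Agt and Agtr2 had mean counts of 1.8, 2.85 and 0.1, and were too low to test.

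Of the prostanoid genes, Ptgis (chromosome 2, 167017305 to 167066104, minus strand) ranged from 3239 to 7563 counts in the proton series (median 6054) and from 5656 to 7713 in the gamma series (median 6667). The proton mouse at 75 cGy was again the lowest. Its slopes were -0.04 ± 0.12 and -0.10 ± 0.12. Ptgs1 (chromosome 2, 36085946 to 36107792) ranged from 45 to 164 counts in the proton series (median 119.5) and from 36 to 167 in the gamma series (median 74), with slopes of 0.26 ± 0.33 and 0.14 ± 0.32. The proton mouse at 100 cGy and the gamma mouse at 5 cGy had the lowest counts of their series.

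**Figure D4:**
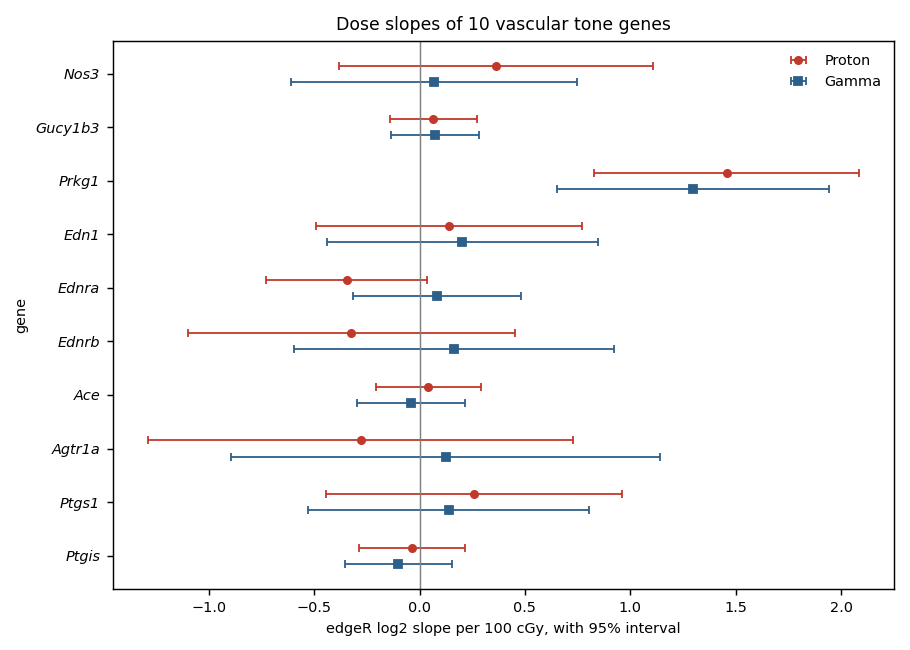
edgeR log2 slope per 100 cGy (horizontal axis) of each member (vertical axis), circles for the proton and squares for the gamma series, with 95% intervals. Both intervals of Prkg1 lie above 0, and those of the other 9 genes include 0.

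The next question of the design is whether the radiation types differed. The slope difference between proton and gamma radiation was called for 0 of the 10 members and for 0% of all genes with edgeR. Unadjusted, 254 genes and none of the members had a p under 0.05, and DESeq2 called 0 genes as well. Proton and gamma mice of the same dose were then compared with dose as a block. Again 0 members and 0% of all genes were called with edgeR, with 1032 genes at an unadjusted p under 0.05, and DESeq2 called 70 genes, none of which was a member (Agtr1a was given no adjusted p by DESeq2).

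The member with the smallest p in this comparison was Gucy1b3. Its counts averaged 2072 ± 333 (SD, n = 10) in the proton series and 2437 ± 222 (SD, n = 10) in the gamma series, and the proton mouse was the higher one at 2 of 10 doses. The log2 difference, proton minus gamma, was -0.26 ± 0.09 (edgeR p = 0.0154, adjusted p = 0.493), and without the proton mouse at 75 cGy it was -0.19 ± 0.07. Agtr1a had a difference of 0.64 ± 0.23 (edgeR p = 0.0166, adjusted p = 0.506) with the proton mouse higher at 7 of 10 doses, and without the mouse at 75 cGy it was 0.52 ± 0.25 (edgeR p = 0.0555). Ptgis was higher in the proton mouse at 2 of 10 doses, with a difference of -0.22 ± 0.11 (edgeR p = 0.0578). At 0 cGy, where neither mouse was irradiated, the proton mouse had 5140 counts of Ptgis and the gamma mouse 6780. For Gucy1b3 these counts were 2082 and 2197, and for Agtr1a 17 and 6. Each of these gaps had the direction of the difference over all doses, but this is 1 pair of mice and the gaps were not tested.

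The variation of Nos3 and Ptgs1 between mice went with the sums of erythroid and endothelium markers, among others. The 10 mice with the highest erythroid sums, 3429 to 13794 against 134 to 978 in the other 10, were the proton mice at 0, 50, 75, 125, 150 and 200 cGy and the gamma mice at 0, 25, 100 and 200 cGy. These same 10 mice had the 10 highest counts of Nos3, 277 to 547 against 113 to 219 in the others. They also had the 10 highest counts of Ptgs1, 119 to 167 against 36 to 80. The groups did not overlap for these 2 members, nor for 0.907% of all genes tested, and the split was made after the values were seen. The summed endothelium markers separated likewise, with 6611 to 8615 against 2562 to 5681 counts. Of the single markers in this sum, Vwf and Tek did so too, while the others overlapped. Pecam1, Cdh5, Tie1, Egfl7 and Esam each had 9 of their 10 highest counts in these mice, and Emcn had 8. Edn1 and Ace had 9 of their 10 highest counts in these mice, and Gucy1b3 and Ptgis had 3 and 2. Of the other marker sums, those of leukocytes and mesothelium each shared 9 of their 10 highest mice with the erythroid sum, and those of fibroblasts and brown fat each shared 7. Whether blood, endothelium or other tissue left in or on the vessel set these values was not tested.

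Relative to the endothelium marker sum, Nos3 varied less. The count of Nos3 was 3.17% to 6.50% of that sum, a 2.05-fold range, while the count itself had a 4.84-fold range. For Edn1 the same share went from 0.824% in the proton mouse at 125 cGy to 5.19% in the gamma mouse at 10 cGy, a 6.30-fold range, beside 4.79-fold for the count. The wider range of Edn1 rested on that 1 proton mouse. Without it the lowest share was 2.35%, in the proton mouse at 75 cGy, and the range was 2.21-fold, beside 4.25-fold for the count. The slopes of these ratios were -0.02 ± 0.11 and -0.22 ± 0.11 for Nos3 and -0.19 ± 0.36 and -0.18 ± 0.12 for Edn1, and none passed an exact permutation test.

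Across 18 slopes of within-mouse ratios, 9 ratios in each series, 3 had an adjusted p under 0.1 (exact two-sided permutation over all dose orders, Benjamini-Hochberg over the 18). Prkg1 relative to the smooth muscle marker sum rose by 1.31 ± 0.33 per 100 cGy in the proton series (exact permutation p = 0.00366, adjusted 0.0410) and by 1.16 ± 0.38 in the gamma series (exact permutation p = 0.0161, adjusted 0.0967). Over 0 to 125 cGy these slopes were 0.29 ± 0.29 and -0.06 ± 0.33. Gucy1b3 relative to the same sum rose by 0.12 ± 0.03 in the gamma series (exact permutation p = 0.00455, adjusted 0.0410), and its slope in the proton series was 0.03 ± 0.07, and the difference between the series was not tested for the ratio. Over 0 to 125 cGy the gamma slope was 0.13 ± 0.06 (adjusted 0.433). The ratios were not run with the GC content and length correction, so the part of library GC content in these slopes was not tested. The ratio of Ptgis to Ptgs1 counts ran from 22.3 in the proton mouse at 75 cGy to 214 in the gamma mouse at 5 cGy, with slopes of -0.30 ± 0.43 and -0.43 ± 0.46, and the ratios of Ednra and Agtr1a to the smooth muscle sum had slopes of -0.36 ± 0.28 and -0.36 ± 0.56 in the proton series and 0.15 ± 0.24 and 0.15 ± 0.42 in the gamma series.

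**Figure D5:**
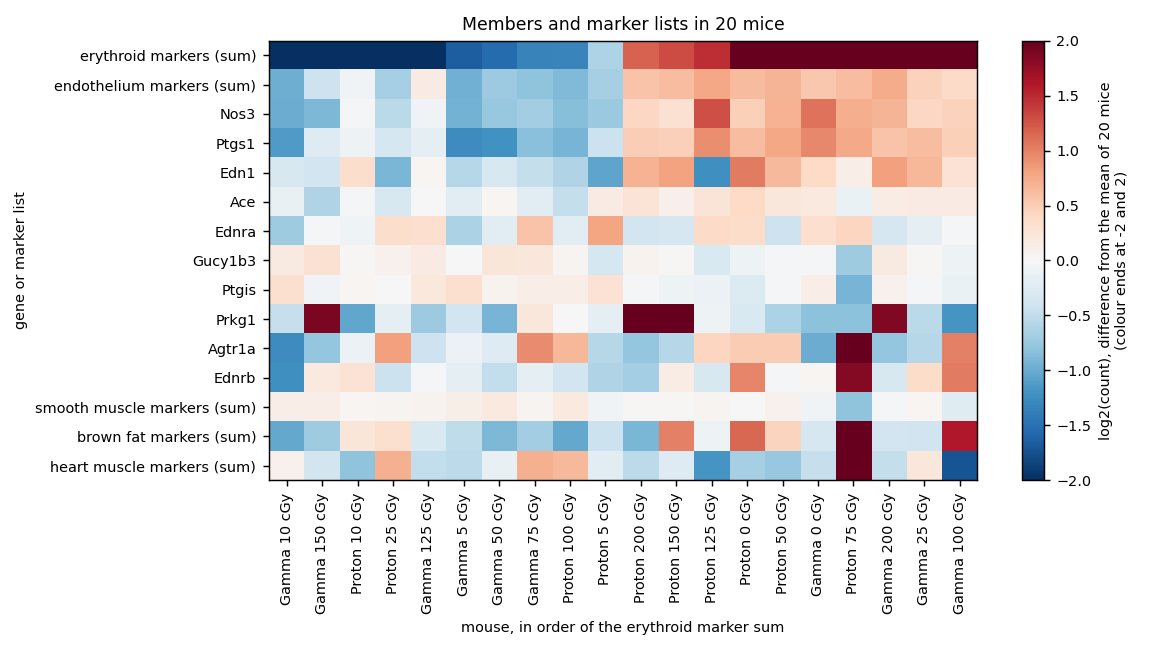
Difference of log2(count) from the mean of 20 mice, from blue (lower) to red (higher) with the colour ending at -2 and 2, for the 10 members and 5 marker sums (rows) in each mouse (columns, in order of the erythroid marker sum). The 10 mice on the right have more endothelium marker counts, Nos3 and Ptgs1, and the proton mouse at 75 cGy has the highest Ednrb, Agtr1a, brown fat and heart muscle values.

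The promoter of Ptgs1 is shown because its counts moved with those of Tek and other endothelial genes. The 250 bases before its start at chr2:36230176-36230425 (RefSeq, GRCm38.p6, plus strand) have a GC content of 48.0% and are printed with the same letters in capitals.
Ptgs1: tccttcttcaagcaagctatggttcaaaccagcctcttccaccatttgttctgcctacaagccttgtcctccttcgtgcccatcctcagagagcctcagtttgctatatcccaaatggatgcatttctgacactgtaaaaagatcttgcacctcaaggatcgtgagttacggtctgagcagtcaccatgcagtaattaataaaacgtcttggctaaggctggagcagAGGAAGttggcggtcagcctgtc
It held AGGAAG alone, 18 to 23 bases before the start, a motif that 29.5% of the 32851 promoter windows hold. Whether this match has a part in the counts of Ptgs1 was not tested.

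For each member, the 3 genes with the most similar pattern were found by the Pearson correlation of library-scaled log2 counts over the 20 mice, among 9817 genes that averaged 50 counts or more. These are descriptions, since all points share the libraries and their makeup. Nos3 was most like Megf6 (r = 0.98), Srgn and Stab1. Ptgs1 was most like Tek (r = 0.96), which encodes an endothelial angiopoietin receptor, Ecscr and Srgn. Ednrb was most like Plin1 (r = 0.94), which encodes a coat protein of fat droplets, Abcd2 and Chchd10. Agtr1a was most like Mrpl17 (r = 0.90), a mitochondrial ribosomal protein, Hacl1 and Clybl.

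Prkg1 was most like Prrc2c (r = 0.97), A630007B06Rik and Btbd7. Gucy1b3 was most like Slmap (r = 0.93), Tmem47 and Pls3, and Ptgis was most like Itga7 (r = 0.95), which encodes a muscle integrin, Coro1c and Plekho1. Edn1 was most like Nop58 (r = 0.85), Thbs1 and Bmp4, and Ace was most like Krt80 (r = 0.85), Elmo1 and Col4a3. Ednra had the weakest neighbours, of which Tchp (r = 0.74) came first, before Adamtsl1 and Paqr7. Between members the highest correlation was that of Nos3 with Ptgs1 (r = 0.94) and the lowest that of Ednrb with Ptgis (r = -0.82).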

How the data were processed

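Libraries of polyA-selected RNA were made with the TruSeq kit. The authors aligned the reads with STAR to mouse build mm9, resampled the libraries to a common depth with the PORT pipeline and deposited sense-strand read counts per gene. The submitters' processing notes name CASAVA 1.8.1 and STAR 2.5.2a. No further scaling of the deposited counts was seen in the values, and their totals had a median of 6056776. A share below 3 counts of a library was taken as not detectable, and this limit covers counting error only, since PCR copies were not told apart by molecular identifiers.

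All 21078 gene identifiers were found in GENCODE M1, from which mm9 positions and exon lengths were taken. The 13124 genes averaging 5 counts or more were tested in edgeR 4.0.16 (TMM, robust quasi-likelihood F test) with Benjamini-Hochberg adjustment over all of them and a threshold of 0.1. The fits covered a slope per radiation type, their difference, a shared slope, and radiation type with dose as a block. Rank trends and slopes of log2 ratios were tested by exact two-sided permutation over all dose orders. The tests were tried on simulated data. Alternatives were DESeq2 1.42.0, library totals without TMM, other count filters and dose scales, 0 to 125 cGy only, a brown fat covariate, a GC content and length correction, and leaving out each mouse.

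The members and gene lists were chosen with earlier results of these data known. Named genes are the members, the pathway genes called in a series or with the shared slope, the highest gene per kb of each list, the 3 genes most like each member, and Cdkn1a. Ptgs1, Prkg1, Ednra, Ednrb, Edn1 and Ace matched the RefSeq promoter table by symbol. The single endothelium markers, Gucy1a3, Agtr1b, Enpep, Ren1, Agt and Agtr2 were named after their values were seen or as partners of a member. Groups came from the radiation and dose labels of each mouse, and the software was Python 3.11.15 with scipy 1.17.1, pandas 2.3.3 and numpy 2.4.6, and R 4.3.3. Antisense and intron reads were not analysed here.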

Additional observations from a re-analysis of the deposited data

Results flagged for a closer look

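Single mice were compared with the rest of their series for each member's count and each within-mouse ratio. In 6 of 38 such groups of 10 mice the highest or lowest mouse lay apart from its neighbour by a gap beyond the 95% critical value of Dixon's ratio. The critical value holds for independent, normally distributed values. Here the counts were not transformed, and the groups share mice and members, so the number of groups marked is not set against a rate expected by chance. The count of Ednrb in the proton mouse at 75 cGy was 125, against 69 in the next mouse, and in the gamma mouse at 100 cGy it was 72, against 45. The count of Agtr1a in the proton mouse at 75 cGy was 59, and its log2 ratio to the smooth muscle marker sum there was -11.45, the highest of the series. These mice had the highest and second highest sums of brown fat markers, 14878 and 5824, of adipocyte markers, 16380 and 6534, and of mesothelium markers, 473 and 127. The first of them also had the highest sums of heart muscle markers, 15801, of skeletal muscle markers, 435, and of Schwann cell markers, 319. The part of these cells in the counts was not tested.

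In the proton mouse at 125 cGy, the log2 ratio of Nos3 to the endothelium marker sum was -3.98, the highest of the proton series, while that of Edn1 was -6.92, the lowest. The endothelium marker sum itself was highest in this mouse, with 8615 counts.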

How the results depend on the processing

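Prkg1 kept its upward direction and its call in both series with DESeq2, library totals without TMM, all genes with a count, the brown fat covariate, the GC content and length correction and without the proton mouse at 75 cGy, with slopes of 1.41 to 1.46 for proton and 1.26 to 1.37 for gamma radiation. On log2(dose + 1) and over 0 to 125 cGy 0 members were called in any fit, with dose as its rank 0 members were called for proton radiation, and with a minimum mean count of 50 the number was 0 because Prkg1, at a mean of 34.7, was not tested. Leaving out each mouse in turn gave 0 to 1 called members for proton and for gamma radiation, the calls being lost without a mouse at 150 or 200 cGy, and 1 to 3 called ratios, the lowest without any 1 of the 4 mice at 150 and 200 cGy. Over 0 to 125 cGy 0 ratios were called.

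Several slopes turned sign, all of them uncalled with all mice and doses except those of Prkg1 and of Prkg1 to smooth muscle for gamma radiation. Over 0 to 125 cGy the proton slopes were -0.14 for Gucy1b3, -0.94 for Edn1, 0.024 for Ednrb, -0.16 for Ace and 0.87 for Agtr1a, and the gamma slopes were -0.17 for Nos3, -0.12 for Prkg1, -0.045 for Edn1 and -0.15 for Ptgs1. Proton ratio slopes there were 0.041 for Gucy1a3 to Gucy1b3, 0.32 for Nos3 to endothelium, 0.78 for Agtr1a and -0.094 for Gucy1b3 to smooth muscle, and the gamma slope of Prkg1 to smooth muscle was -0.063. Per unit of log2(dose + 1) the proton slopes were -0.039 for Edn1, -0.025 for Ace and 0.059 for Agtr1a and the gamma slopes -0.068 for Nos3 and -0.047 for Ptgs1, and per rank the slopes were -0.0029 for Ace (proton) and -0.015 for Nos3 (gamma). With the brown fat covariate the gamma slopes were -0.013 for Nos3, -0.029 for Ednrb and -0.075 for Agtr1a, and with the GC content and length correction the proton slope of Ptgis was 0.068.

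Without 1 mouse, proton slopes ranged from -0.0073 to 0.099 for Gucy1b3, -0.085 to 0.44 for Edn1, -0.069 to 0.12 for Ace, -0.53 to 0.19 for Agtr1a and -0.11 to 0.039 for Ptgis. Gamma slopes ranged from -0.39 to 0.46 for Nos3, -0.17 to 0.31 for Edn1, -0.017 to 0.28 for Ednra, -0.21 to 0.060 for Ace, -0.045 to 0.53 for Agtr1a and -0.16 to 0.52 for Ptgs1. Ratio slopes ranged from -0.23 to 0.24 (proton) and -0.17 to 0.020 (gamma) for Ednra to Ednrb, -0.047 to 0.0046 and -0.063 to 0.0059 for Gucy1a3 to Gucy1b3, -0.59 to 0.043 and -0.030 to 0.47 for Agtr1a to smooth muscle, and, for proton radiation, -0.094 to 0.063 for Nos3 and -0.50 to 0.055 for Edn1 to endothelium and -0.014 to 0.076 for Gucy1b3 to smooth muscle. None of these slopes was called in the setting where it turned sign, and the causes were not tested. Mice of equal dose were paired by dose as a block in the comparison of radiation types, since the 2 series share no replicate numbers. At 5 to 59 counts, Agtr1a bears the largest counting error of the members.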
